A study of Mus musculus with 6 samples.

Results

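The genes described here run the mechanics of cell division: the mitotic cyclins and their kinase, the Aurora and Polo-like kinases, the spindle assembly checkpoint, the kinetochore, mitotic kinesins, spindle and cytokinesis proteins, condensin, and the proteins that start anaphase. They were chosen by gene name alone (Ccna, Ccnb, Cdk1, Cdc25, Cdca, Cenp, Aurk, Bub, Ncap and similar names, protein-coding genes). The deposited table lists 78 of them among 12163 genes. The same names fit 90 protein-coding genes of the GENCODE M21 mouse annotation, and the other 12 (Aurkaip1, Aurkc, Ccna1, Cdc25b, Cdca7l, Cenpb, Cenpk, Cenpo, Cenpp, Cenpx, Ncaph2 and Smc4) were not analysed here. The samples were fat grafts of wild-type C57BL/6 mice collected 7 days after grafting (3 libraries) and fat of wild-type C57BL/6 mice collected before grafting (3 libraries). The submitters call them biological replicates. Neither the depot nor the graft site is labelled, nor are sex and age. The p-values below measure the spread between these 3 libraries per group.

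Cells that divide enter mitosis when cyclin B activates the kinase CDK1, condense their chromosomes with condensin, and attach each chromosome to spindle microtubules through the kinetochore, a protein assembly built on the centromere. The spindle assembly checkpoint holds back anaphase until attachment is complete, after which CDC20 directs the destruction of cyclin B and securin, and separase cuts the cohesin rings that join sister chromatids. Most of these genes are transcribed in late S phase, G2 and mitosis, and mature adipocytes are regarded as non-dividing cells. In bulk RNA a change in the number of such cells and a change in RNA per cell cannot be told apart.

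Values are normalised read counts as deposited, in which each library's reads were scaled by a single factor. Over the listed genes they summed to 12846005 to 15443409 per library. The table appears to hold genes selected for a difference, since 80.4% of the 10854 genes tested were called, so that every share of calls is read beside the share among all genes tested. The 8 adipocyte markers examined were present in tissue before grafting and all 8 fell in grafts, with summed normalised counts of 5477 to 20050 in grafts, against 224400 to 308600 before grafting. The 8 macrophage markers all rose, with sums of 188800 to 198300 in grafts, against 21070 to 23840 before grafting. The 7 neutrophil markers all rose, with sums of 40370 to 77210 in grafts, against 374.8 to 600 before grafting. The 7 listed T and NK cell markers and the 4 listed B and plasma cell markers all fell. Of 6 fibroblast markers 4 rose and 1 fell, with sums of 600800 to 1018000 in grafts, against 109700 to 138900 before grafting. Of 3 listed endothelial markers 2 fell, with sums of 2192 to 3148 in grafts, against 5867 to 6857 before grafting. The part of these shifts in cell content in the results on mitotic genes was not tested.

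Mitotic genes were mostly higher in grafts. Limma called 69 of the 78 higher and 3 lower at an adjusted p under 0.05, and 6 did not pass the test. Among all tested genes 41.3% were called higher and 39.2% lower, or 80.4% in either direction. Separately from the test, the 3 grafts all lay above the 3 libraries before grafting for 74 of the 78 genes, and below them for the other 4; among all tested genes the grafts lay wholly above for 49.6% and wholly below for 48.0%, or 97.6% together. The median log2 fold change of the 78 genes was 1.85 and the range was -1.91 to 3.43, beside a median of 0.28 over all tested genes. A rise of at least 1 on the log2 scale was called for 63 mitotic genes, beside 25.6% of all tested genes, and a rise of at least 2 for 33, beside 12.2%. All 78 passed the filter on low values. Summed over the 78 genes, normalised counts were 36795.2, 29437.8 and 32900.6 in the 3 grafts, against 12721.0, 9911.5 and 12614.1 before grafting. These sums were 0.256, 0.191 and 0.226% of the listed total in grafts, against 0.0990, 0.0687 and 0.0945% before grafting.

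The size of the shift depended on the scaling of the libraries. Holding the ribosomal protein genes at no change moved the median of all tested genes to -0.49 and that of the mitotic genes to 1.08, with 49 called higher and 4 lower. The mitotic median then lay 1.57 above that of all tested genes, beside 1.56 in the main fit. That scaling lowered all log2 fold changes by nearly the same amount, so this distance could hardly change and tests nothing. Under that scaling the small rises of Bub3 and Cenpc1 became -0.29 and -0.27 on the log2 scale. Shares of calls among all tested genes were counted for the main fit only. Counts under other scalings, here and below, therefore have no such share beside them.

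**Figure D1:**
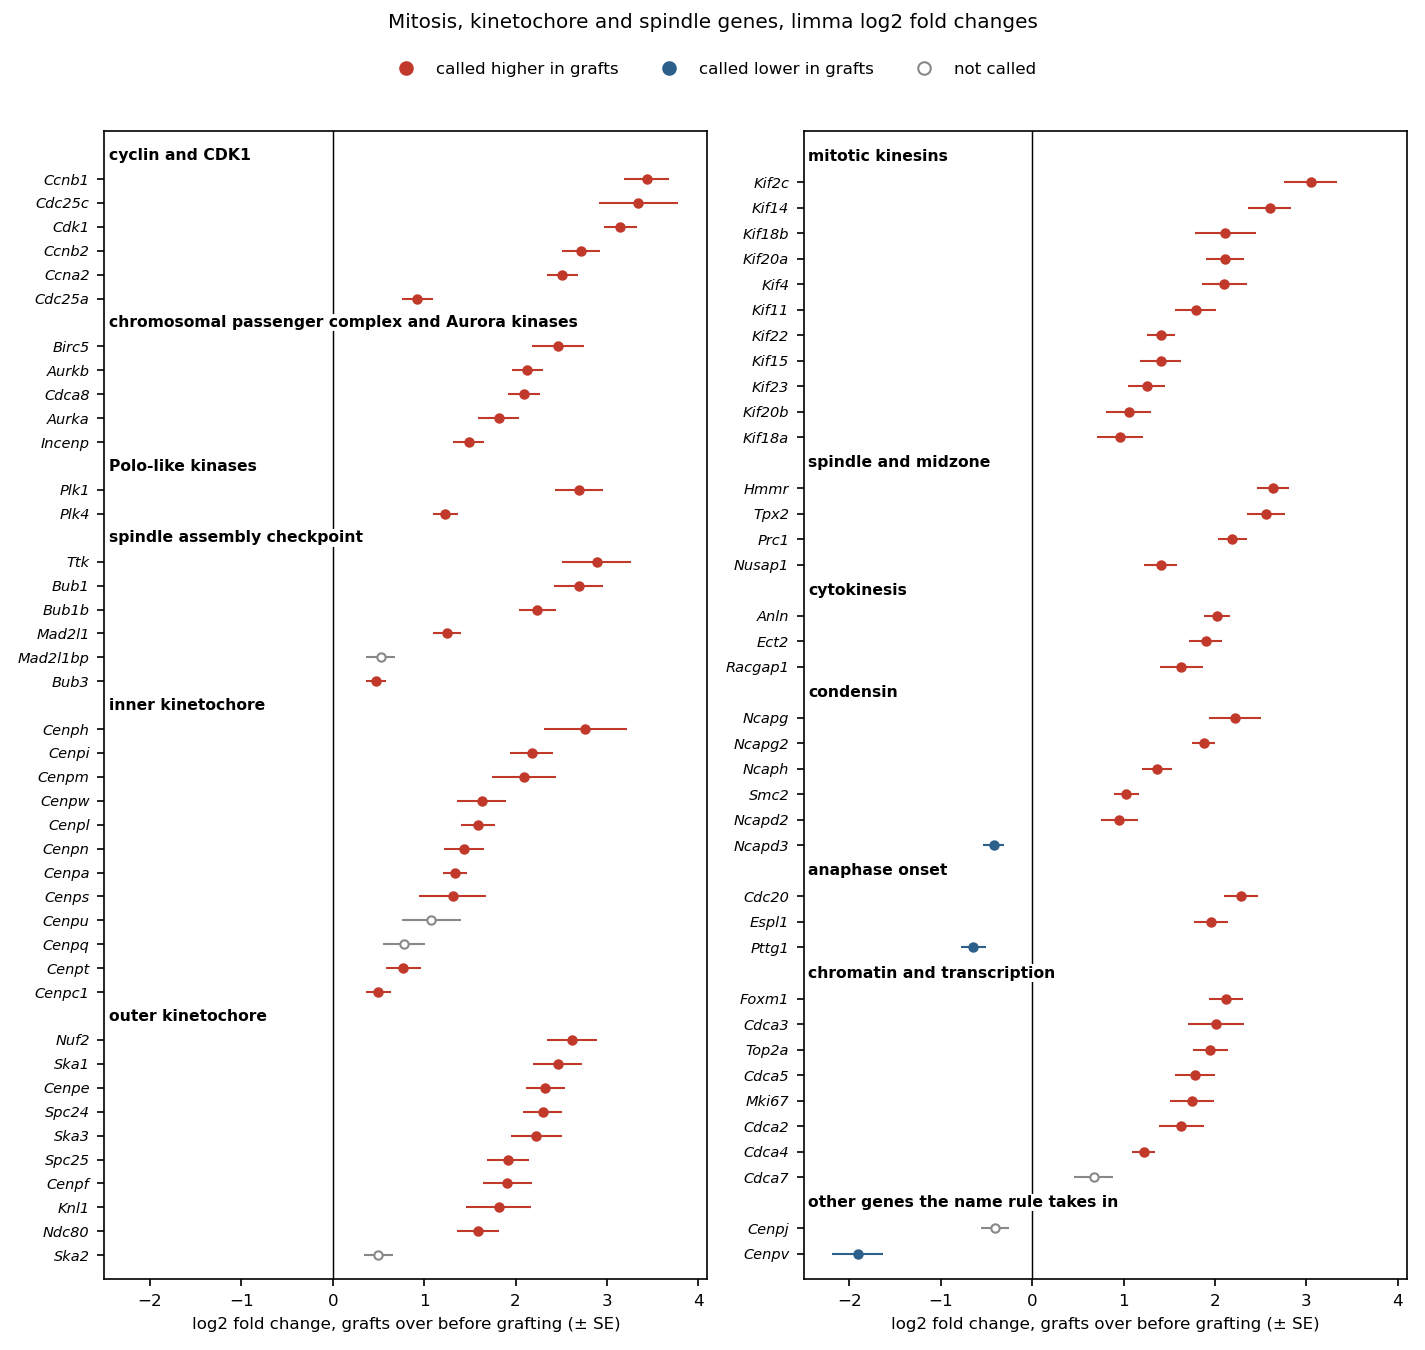
Log2 fold change of each of the 78 listed mitotic genes (x axis, grafts over before grafting, limma, bars are SE), grouped by role. Filled red points were called higher in grafts (69), filled blue points lower (3), and open points did not pass the test (6). Cyclin and CDK1 genes lie farthest to the right with a median of 2.93, and Cenpv, Pttg1, Ncapd3 and Cenpj lie left of 0.

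Promoters of cell cycle genes often hold a CHR element, which the DREAM and MMB complexes bind, together with CCAAT boxes, which NF-Y binds. RefSeq promoter windows (build GRCm38.p6, 250 bases before to 50 after each start site) were found for 68 of the 78 genes, as 73 windows, 5 genes having more than 1. Searched were the CHR letters TTTGAA and TTCGAA, the NF-Y letters CCAAT and the E2F letters TTTCCCGC, on both strands, with 2 overlapping matches in these windows. TTTGAA stood in 46 of the 73 windows (63.0%), against 17.9% of all 32851 mouse windows. CCAAT stood in 47 (64.4%), against 37.4% of all windows. TTTGAA and CCAAT stood in the same window in 36 (49.3%), against 6.95%. TTTCCCGC stood in 6 (8.22%), against 1.07%, and TTCGAA in 4 (5.48%), against 1.56%. These are matches of letters, and whether a factor binds there was not measured. Other letters that a CHR element may have were not searched, so a window without TTTGAA is not shown to lack the element.

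The 8 windows that follow were chosen after the values were seen. They belong to the mitotic kinase Cdk1, the Polo-like kinase Plk1, the anaphase activator Cdc20, separase (Espl1) and the condensin II subunit Ncapg2, which rose and hold TTTGAA, to cyclin B1 (Ccnb1), which had the largest rise and holds CCAAT but not TTTGAA, and to Ncapd3 and Cenpv, which fell and hold none of the 4 motifs here. Capitals mark the motifs, with ATTGG standing for CCAAT and GCGGGAAA for TTTCCCGC on the other strand.
Cdk1, chr10:69352863-69353162, minus strand: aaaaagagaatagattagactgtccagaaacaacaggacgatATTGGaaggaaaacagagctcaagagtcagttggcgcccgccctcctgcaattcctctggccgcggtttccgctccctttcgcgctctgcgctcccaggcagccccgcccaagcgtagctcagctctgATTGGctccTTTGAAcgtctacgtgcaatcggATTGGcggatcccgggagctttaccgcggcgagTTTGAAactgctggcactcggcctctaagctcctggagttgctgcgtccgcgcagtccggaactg
Plk1, chr7:122159185-122159484, plus strand: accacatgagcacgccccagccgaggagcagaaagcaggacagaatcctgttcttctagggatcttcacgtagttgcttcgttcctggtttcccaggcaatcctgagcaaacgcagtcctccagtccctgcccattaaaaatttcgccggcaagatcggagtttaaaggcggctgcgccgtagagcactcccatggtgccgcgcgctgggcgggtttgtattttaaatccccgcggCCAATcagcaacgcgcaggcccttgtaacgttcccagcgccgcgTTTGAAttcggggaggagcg
Cdc20, chr4:118437294-118437593, minus strand: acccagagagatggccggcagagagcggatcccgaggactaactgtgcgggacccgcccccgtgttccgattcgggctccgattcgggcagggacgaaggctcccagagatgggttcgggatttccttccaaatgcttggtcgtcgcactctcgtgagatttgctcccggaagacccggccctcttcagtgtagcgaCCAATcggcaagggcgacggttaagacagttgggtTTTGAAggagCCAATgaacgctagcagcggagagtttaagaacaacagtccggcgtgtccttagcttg
Espl1, chr15:102296043-102296342, plus strand: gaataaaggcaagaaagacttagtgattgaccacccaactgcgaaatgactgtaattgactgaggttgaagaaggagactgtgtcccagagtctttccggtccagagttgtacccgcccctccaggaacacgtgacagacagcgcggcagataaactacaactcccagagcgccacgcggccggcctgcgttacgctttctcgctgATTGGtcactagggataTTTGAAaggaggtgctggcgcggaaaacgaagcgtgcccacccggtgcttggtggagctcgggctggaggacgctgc
Ncapg2, chr12:116405186-116405485, plus strand: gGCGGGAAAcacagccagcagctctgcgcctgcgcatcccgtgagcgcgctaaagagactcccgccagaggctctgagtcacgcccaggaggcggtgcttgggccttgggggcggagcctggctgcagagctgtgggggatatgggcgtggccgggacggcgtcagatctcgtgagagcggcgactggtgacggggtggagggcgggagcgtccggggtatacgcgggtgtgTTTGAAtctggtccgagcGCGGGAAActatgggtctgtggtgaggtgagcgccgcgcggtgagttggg
Ccnb1, chr13:100786437-100786736, minus strand: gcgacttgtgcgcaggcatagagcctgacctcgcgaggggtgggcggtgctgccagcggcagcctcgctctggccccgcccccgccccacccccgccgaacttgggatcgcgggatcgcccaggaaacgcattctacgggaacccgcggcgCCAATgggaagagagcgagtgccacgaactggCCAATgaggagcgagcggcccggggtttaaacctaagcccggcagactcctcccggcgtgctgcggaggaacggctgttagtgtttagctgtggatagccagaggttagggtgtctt
Ncapd3, chr9:27029915-27030214, plus strand: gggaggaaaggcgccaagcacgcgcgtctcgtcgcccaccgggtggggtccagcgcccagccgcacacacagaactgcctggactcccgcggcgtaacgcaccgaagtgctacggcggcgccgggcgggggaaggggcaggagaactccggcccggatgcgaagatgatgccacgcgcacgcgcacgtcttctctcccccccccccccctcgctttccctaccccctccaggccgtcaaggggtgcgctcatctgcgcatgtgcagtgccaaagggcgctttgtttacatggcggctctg
Cenpv, chr11:62539212-62539511, minus strand: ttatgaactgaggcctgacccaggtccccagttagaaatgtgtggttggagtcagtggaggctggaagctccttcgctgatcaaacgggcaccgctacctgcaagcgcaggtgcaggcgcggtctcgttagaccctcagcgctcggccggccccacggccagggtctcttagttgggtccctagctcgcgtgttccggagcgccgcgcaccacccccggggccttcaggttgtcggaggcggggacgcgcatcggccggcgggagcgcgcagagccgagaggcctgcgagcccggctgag

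TTTGAA lay mostly near the start site. Of the 58 TTTGAA matches in these 73 windows, 42 began within 50 bases of the start site. That stretch held TTTGAA in 39 windows (53.4%), against 4.94% of all windows. In the sequences printed, TTTGAA began 71 and 15 bases before the start site in Cdk1, 18 before it in Cdc20 and Ncapg2, 27 before it in Espl1, and at base 31 after it in Plk1. Of the 43 genes with TTTGAA in any window, 42 rose and 1 fell (median log2 fold change 1.90). Of the 25 genes with a window but no TTTGAA, 17 rose, 2 fell and 6 did not pass the test, with a median of 1.23. Of all tested genes 41.3% were called higher and 39.2% lower. The 1 gene with TTTGAA that fell is Ncapd3, whose match lies in a second window inside the gene and not in the one printed. For Pttg1, which also fell, the RefSeq start lies 270 bases inside the listed gene, so its window is not shown. That window was still counted above. RefSeq starts of some other genes, among them Kif2c and Kif14, lie inside the listed gene too, and their windows were counted as well.

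**Figure D2:**
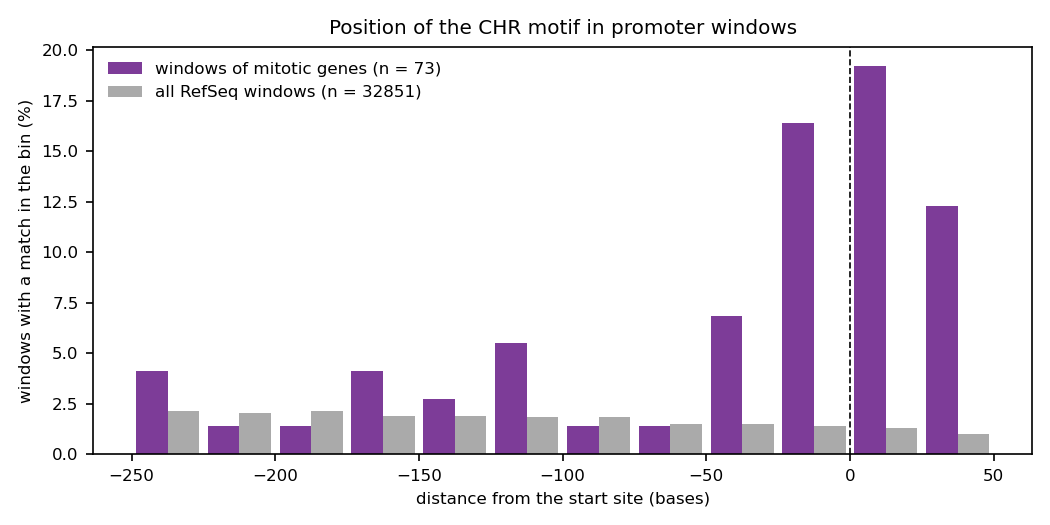
Share of promoter windows with a TTTGAA match (y axis, percent) by distance of its first base from the start site (x axis, bases, bins of 25), for 73 windows of mitotic genes (purple) and all 32851 windows (grey). The purple bars stand highest from 25 bases before the start to 50 after it, with 16.4, 19.2 and 12.3%, while the grey bars lie between 0.971 and 2.12% everywhere.

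The cyclin and CDK1 group had the highest median log2 fold change of the 13 role groups, 2.93. All 6 listed genes were called higher, beside 41.3% of all tested genes. Ccnb1, cyclin B1, which drives entry into mitosis (ENSMUSG00000041431, chromosome 13, 100778650 to 100786570, GRCm38), had 646.8, 515.9 and 615.3 normalised counts in grafts, against 74.9, 39.5 and 52.1 before grafting. Every graft was above every library before grafting, by a log2 fold change of 3.43 (standard error 0.24, adjusted p = 3.15e-05), the largest of the 78. Part of this value is uncertain, because reads of Ccnb1 can be shared with near-identical processed pseudogenes, among them Ccnb1-ps, 99.2% identical over 1287 bases. Cdk1, the kinase that cyclin B activates, had 869.7, 629.4 and 738.9 normalised counts in grafts, against 99.6, 72.9 and 77.7 before grafting. Its groups were far apart, at a log2 fold change of 3.15 (standard error 0.18, adjusted p = 1.24e-05). Ccnb2, the second B-type cyclin, had 458.0, 361.7 and 369.0 in grafts, against 57.2, 48.6 and 73.8 before grafting, a log2 fold change of 2.72 (standard error 0.21). Ccna2, the cyclin of S phase and G2, averaged 690.4 ± 89.7 in grafts and 120.8 ± 20.6 before grafting (SD, n = 3 each), a log2 fold change of 2.51. Within the group the phosphatases that activate CDKs differed most. Cdc25c, which acts at mitotic entry, had 99.4, 64.0 and 60.3 in grafts, against 4.9, 4.1 and 11.8 before grafting, a log2 fold change of 3.34 (standard error 0.43). Cdc25a, which also acts at the start of S phase, averaged 387.8 ± 54.5 in grafts and 203.9 ± 33.0 before grafting, a log2 fold change of 0.93 (standard error 0.17), the smallest of the group. Exons of Cdc25c and Ccna2 overlap a gene on the other strand over 12.7 and 12.5% of their bases, and strand use in counting is not given.

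**Figure D3:**
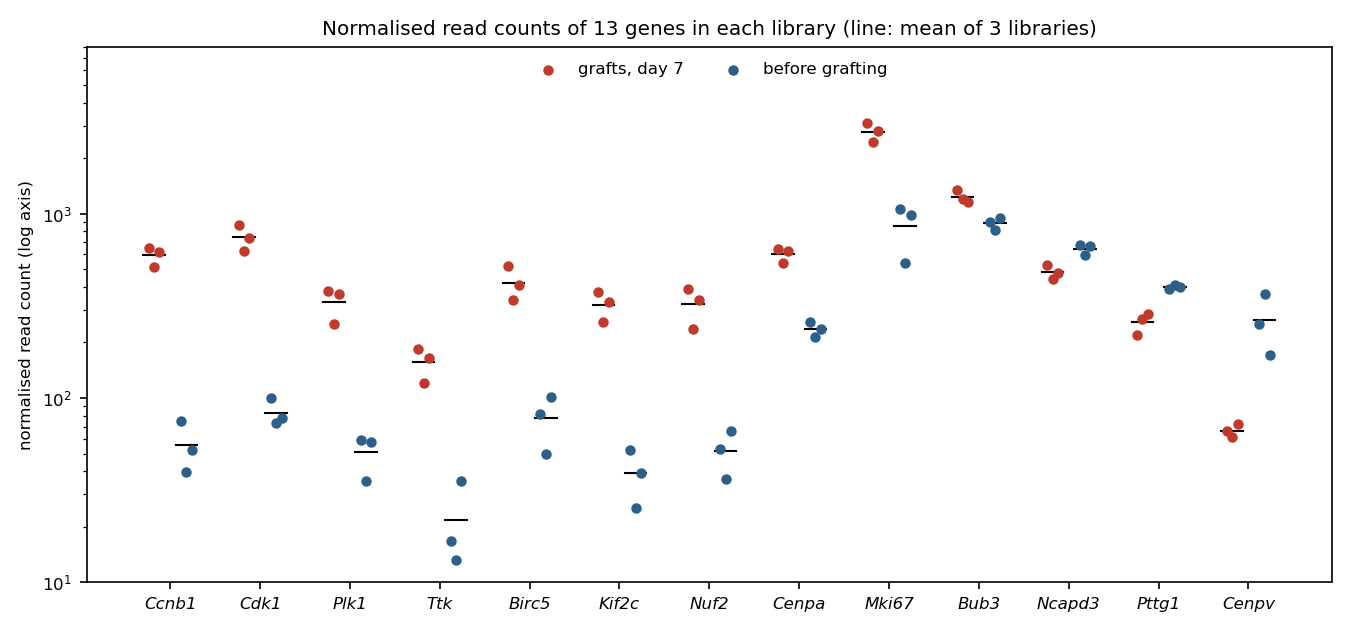
Normalised read counts (log axis) of 13 mitotic genes in each library, grafts in red to the left of libraries before grafting in blue, with the mean of 3 as a line. Ccnb1 and Cdk1 lie between 515.9 and 869.7 in grafts and below 100 before grafting, Bub3 differs little, and Ncapd3, Pttg1 and Cenpv lie lower in grafts.

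All 5 genes of the chromosomal passenger complex and the Aurora kinases rose, beside 41.3% of all tested genes. Their median log2 fold change was 2.09. The passenger complex, Aurora B with INCENP, survivin and borealin, corrects faulty attachments of chromosomes. Birc5, which encodes survivin, had 518.2, 338.5 and 407.5 normalised counts in grafts, against 81.8, 49.6 and 101.3 before grafting. The lowest graft was more than 3 times the highest library before grafting, and the log2 fold change was 2.46 (SE 0.28, adjusted p = 0.000442). Incenp, the scaffold that activates Aurora B, had 881.8, 676.9 and 776.5 in grafts, against 342.2, 235.0 and 259.7 before grafting. It had the smallest rise of the complex, 1.49 on the log2 scale (SE 0.17), and the highest graft level of the group per kilobase of gene. Aurkb and Cdca8, which encodes borealin, rose by nearly the same amount, 2.13 (SE 0.17) and 2.09 (SE 0.17). Aurka, the Aurora kinase of centrosomes and spindle poles, rose by 1.81 (SE 0.22). Plk1, the Polo-like kinase of mitosis, had 379.6, 251.2 and 365.0 in grafts, against 59.2, 35.5 and 58.0 before grafting. Graft replicate 2 was the lowest graft and still far above the other group, and the log2 fold change was 2.70 (SE 0.27, adjusted p = 0.000185). Plk4, which starts centriole duplication, rose by 1.23 (SE 0.14), or by 0.47 without passing the test when ribosomal protein genes were held constant.

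In the spindle assembly checkpoint 5 of 6 genes were called higher, beside 41.3% of all tested genes. Log2 fold changes ranged from 0.47 to 2.89, and 3 genes were called higher with ribosomal protein genes held constant. Ttk, the kinase MPS1 at the head of the checkpoint, had 183.8, 121.2 and 164.2 normalised counts in grafts, against 16.8, 13.2 and 35.4 before grafting. Replicate 3 before grafting was the highest of its group at more than 2 times the others, and the log2 fold change was 2.89 (SE 0.38, adjusted p = 0.000896). Bub1, a checkpoint kinase at kinetochores, rose by 2.69 (SE 0.27) and Bub1b, the checkpoint protein BUBR1, by 2.24 (SE 0.20). Mad2l1, the MAD2 protein that inhibits CDC20, rose by 1.25 (SE 0.15). Bub3, which carries BUB1 and BUBR1 to kinetochores and is also made outside mitosis, had 1340.8, 1193.8 and 1156.4 in grafts, against 895.3, 812.5 and 948.2 before grafting. Its groups did not overlap, but the log2 fold change of 0.47 (standard error 0.11, adjusted p = 0.0152) lost its call under each of the 4 other scalings, and its sign when ribosomal protein genes were held constant. Mad2l1bp, or p31comet, which takes MAD2 out of the checkpoint complex, had 176.8, 174.6 and 163.2 in grafts, against 128.2, 118.5 and 110.2 before grafting. The groups were separate, yet its log2 fold change of 0.53 (standard error 0.16) did not pass the test (adjusted p = 0.0675).

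The 12 listed inner kinetochore genes encode proteins of the layer next to centromeric chromatin. Of them 10 rose, beside 41.3% of all tested genes, and 2 did not pass the test, with a median log2 fold change of 1.39. With ribosomal protein genes held constant only 5 were called higher, with Cenpw, Cenpn, Cenps, Cenpt and Cenpc1 lost. Cenpa, the histone H3 variant that marks the centromere, had 640.8, 537.3 and 625.2 normalised counts in grafts, against 257.4, 214.8 and 237.1 before grafting. Both groups were tight, and the log2 fold change was 1.34 (SE 0.13, adjusted p = 0.000172). Cenph, a subunit of the constitutive centromere network, had 92.4, 69.8 and 69.2 in grafts, against 10.8, 5.1 and 19.7 before grafting. The 3 libraries before grafting spread nearly 4-fold at these low counts, and the log2 fold change of 2.76, the largest of the inner kinetochore, had an SE of 0.45 (adjusted p = 0.00316). Cenpi and Cenpm, of the same network, rose by 2.18 (SE 0.24) and 2.10 (SE 0.35). Cenpw and Cenpl rose by 1.63 and 1.59, Cenpn by 1.43 and Cenps by 1.31. The smallest rises passing the test were those of Cenpt, 0.77 (SE 0.19, adjusted p = 0.0279), and Cenpc1, 0.50 (SE 0.14, adjusted p = 0.0399), which encode the linkers from the centromere to the outer kinetochore. The calls of Cenps, Cenpt and Cenpc1 were lost under each of the 4 other scalings and on leaving out any 1 library, except that Cenps and Cenpt kept theirs without graft replicate 2. Cenpu had 70.3, 68.9 and 39.6 in grafts, against 31.6, 21.3 and 28.5 before grafting. Primpol on the other strand overlaps 26.7% of the exon bases of Cenpu. Graft replicate 3 lay well below the other 2, and the log2 fold change of 1.08 (standard error 0.32) missed the threshold (adjusted p = 0.0611), but passed it without that graft. Cenpq, its partner in a shared subcomplex, had 170.7, 113.5 and 158.3 in grafts, against 82.8, 71.9 and 100.3 before grafting. The lowest graft was close to the highest library before grafting, and the log2 fold change of 0.78 (standard error 0.23) missed the threshold (adjusted p = 0.0589), but passed it without graft replicate 2.

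Outer kinetochore genes, whose proteins bind the microtubules, rose in 9 of 10 cases, beside 41.3% of all tested genes. Their median log2 fold change was 2.07. Nuf2, a subunit of the NDC80 complex that grips microtubules, had 387.7, 236.6 and 340.3 normalised counts in grafts, against 53.2, 36.5 and 65.9 before grafting. Its groups were widely separated, with replicate 2 the lowest in each, and the log2 fold change was 2.62 (SE 0.28, adjusted p = 0.000277). Cenpe, the kinesin that carries chromosomes to the spindle equator, had 614.6, 517.9 and 589.6 in grafts, against 143.0, 82.1 and 123.9 before grafting. All grafts exceeded the other group, and its log2 fold change was 2.33 (SE 0.21). The other NDC80 subunits rose by 2.30 (Spc24, SE 0.22), 1.92 (Spc25, SE 0.23) and 1.59 (Ndc80, SE 0.23). Knl1, the scaffold on which checkpoint proteins assemble, rose by 1.82 (SE 0.35), and Cenpf, a large kinetochore protein of G2 and mitosis, by 1.91 (SE 0.27). The SKA complex, which couples kinetochores to shortening microtubules, was uneven. Ska1 rose by 2.46 (SE 0.27) and Ska3 by 2.23 (SE 0.28). Ska2 had 174.8, 167.8 and 198.8 in grafts, against 126.2, 126.6 and 127.9 before grafting. These groups did not overlap either, but the log2 fold change of 0.50 (standard error 0.16) did not pass the test (adjusted p = 0.0780). Reads of Ska2 can be shared with the pseudogene Ska2l-ps, 97.2% identical over 360 bases.

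All 11 listed mitotic kinesins rose, beside 41.3% of all tested genes, by 0.96 to 3.05 on the log2 scale with a median of 1.79. With ribosomal protein genes held constant 7 were still called higher. Kif2c, or MCAK, which takes apart microtubule ends at the centromere, had 373.6, 257.0 and 330.4 normalised counts in grafts, against 52.3, 25.3 and 39.3 before grafting. Replicate 2 was the lowest library of each group, and the log2 fold change was 3.05 (SE 0.29, adjusted p = 0.000149). Kif11, or Eg5, which pushes the spindle poles apart, had 660.8, 599.3 and 620.2 in grafts, against 193.3, 125.6 and 242.0 before grafting. Its grafts lay close together while the other group spread nearly 2-fold, and the log2 fold change was 1.79 (SE 0.23). Kif14, a kinesin of cytokinesis, rose by 2.60 (SE 0.24). Kif20a, which brings the passenger complex to the midzone, rose by 2.11 (SE 0.21), and Kif4, a chromosome-bound kinesin, by 2.10 (SE 0.25), although 29.3 and 15.1% of their exon bases overlap Cdc23 and Pdzd11 on the other strand. Kif18b, which limits the length of astral microtubules, rose by 2.11 (SE 0.33). Kif18a, which damps chromosome movement at the spindle equator, rose by 0.96 (SE 0.25, adjusted p = 0.0349), a call that was lost under each of the 4 other scalings and without any 1 library but replicate 3 before grafting. Kif20b, a kinesin of cytokinesis, rose by 1.05 (SE 0.25, adjusted p = 0.0196), which was lost with equal totals, equal upper quartiles or ribosomal protein genes held constant, and without graft replicate 1 or 3 or replicate 2 before grafting. Kif22, which pushes chromosome arms away from the poles, and Kif15, which acts beside Kif11 in the spindle, rose by 1.41 (SE 0.15) and 1.41 (SE 0.22).

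Spindle, midzone and cytokinesis genes rose in all 7 cases, beside 41.3% of all tested genes. Hmmr, a spindle pole protein, had 414.8, 353.0 and 440.2 normalised counts in grafts, against 61.1, 71.9 and 59.0 before grafting. The libraries before grafting differed little, and the log2 fold change was 2.63 (SE 0.17, adjusted p = 2.14e-05). Tpx2, which activates Aurora A on spindle microtubules, had 802.5, 590.6 and 728.0 in grafts, against 141.0, 89.1 and 131.8 before grafting. All grafts were above the other group by a log2 fold change of 2.56 (standard error 0.21). Prc1, which bundles midzone microtubules, rose by 2.19 (SE 0.16), and Nusap1, a microtubule-binding spindle protein, by 1.41 (SE 0.18). Anln, the actin-binding anillin of the cleavage furrow, had 789.4, 598.4 and 651.9 in grafts, against 160.7, 164.1 and 172.1 before grafting. The values before grafting agreed closely, and the log2 fold change was 2.02 (SE 0.14). Racgap1, which forms the centralspindlin complex with Kif23, had 864.7, 608.1 and 673.6 in grafts, against 278.1, 158.0 and 268.5 before grafting. Its groups were separate, at a log2 fold change of 1.63 (standard error 0.24). Kif23, its kinesin partner, rose by 1.25 (SE 0.21), and Ect2, the exchange factor that centralspindlin recruits, by 1.90 (SE 0.19).

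Condensin genes moved in both directions. Smc2, the core ATPase of both condensins, had 1001.3, 786.5 and 843.8 normalised counts in grafts, against 443.7, 374.8 and 467.2 before grafting. Graft values were about 2 times those before grafting, and the log2 fold change was 1.03 (SE 0.14, adjusted p = 0.000906). Ncapg, a subunit of condensin I, had 318.4, 260.9 and 282.9 in grafts, against 73.0, 38.5 and 79.7 before grafting. The log2 fold change of 2.22 (standard error 0.28) was the largest of the group, and 13.4% of its exon bases overlap Lcorl on the other strand. The other condensin I subunits, Ncaph and Ncapd2, rose by 1.37 (SE 0.17) and 0.95 (SE 0.20). Ncapd2 was not called with equal listed totals, and with ribosomal protein genes held constant neither were Ncaph, Ncapd2 and Smc2, which left 2 condensin genes called higher. The condensin II subunits parted. Ncapg2 had 1194.1, 983.4 and 1029.8 in grafts, against 304.7, 256.3 and 310.8 before grafting. All 3 grafts stood above, at a log2 fold change of 1.88 (standard error 0.13, adjusted p = 2.53e-05). Ncapd3 had 528.3, 444.2 and 475.8 in grafts, against 674.5, 598.7 and 665.9 before grafting. All 3 grafts stood below, at a log2 fold change of -0.42 (standard error 0.11, adjusted p = 0.0384), and the call was lost without graft replicate 2 or 3 or without replicate 1 or 3 before grafting. Within each library the ratio of Ncapg2 to Ncapd3 counts was 2.26, 2.21 and 2.16 in grafts, against 0.452, 0.428 and 0.467 before grafting. This ratio is free of the scaling between libraries and varied little within a group; the pair was chosen after its values were seen, so that no test is given.

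The 3 genes of anaphase onset parted as well. Cdc20, the activator of the ubiquitin ligase APC/C, had 483.1, 362.7 and 465.9 normalised counts in grafts, against 91.7, 75.0 and 99.3 before grafting. The lowest graft was more than 3 times the highest library of the other group, and the log2 fold change was 2.29 (SE 0.18, adjusted p = 6.25e-05). Espl1, separase, had 547.4, 540.2 and 483.7 in grafts, against 138.0, 105.4 and 165.3 before grafting. Its rise of 1.96 on the log2 scale (SE 0.18) left the groups well apart. Pttg1, securin, which holds separase inactive until anaphase, had 219.9, 266.7 and 283.9 in grafts, against 391.5, 408.3 and 398.4 before grafting (ENSMUSG00000020415, chromosome 11, 43420250 to 43426251, GRCm38). All grafts lay below the narrow range before grafting, by a log2 fold change of -0.64 (standard error 0.14, adjusted p = 0.0126), or adjusted p = 0.0524 without replicate 3 before grafting. The ratio of Espl1 to Pttg1 counts within a library was 2.49, 2.03 and 1.70 in grafts, against 0.353, 0.258 and 0.415 before grafting. Other partners kept closer to each other. The ratio of Ccnb1 to Cdk1 was 0.744, 0.820 and 0.833 in grafts, against 0.753, 0.542 and 0.671 before grafting, and these ranges overlapped. The ratio of Nuf2 to Ndc80 was 1.57, 1.30 and 1.61 in grafts, against 0.771, 0.655 and 0.744 before grafting, with no overlap. That of Kif23 to Racgap1 was 0.484, 0.561 and 0.665 in grafts, against 0.670, 0.801 and 0.740 before grafting, also without overlap but nearly meeting. These pairs, too, were picked with the values known.

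**Figure D4:**
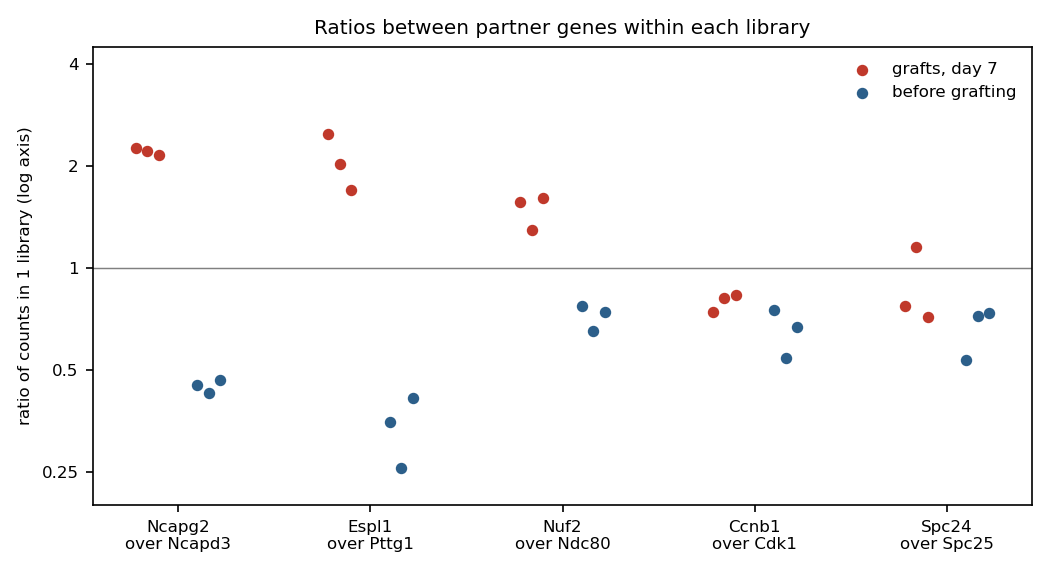
Ratio of the normalised counts of 2 partner genes within each library (log axis), grafts in red to the left of libraries before grafting in blue. Ncapg2 over Ncapd3 and Espl1 over Pttg1 lie above 1 in every graft and below 0.5 in every library before grafting, whereas Ccnb1 over Cdk1 and Spc24 over Spc25 overlap between the groups.

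Of the 8 chromatin and transcription genes, 7 rose, beside 41.3% of all tested genes, with a median log2 fold change of 1.77. Mki67, the coat protein of mitotic chromosomes known as Ki-67, had 3097.3, 2433.2 and 2807.3 normalised counts in grafts, against 1052.1, 537.9 and 982.6 before grafting. Replicate 2 before grafting lay well below the others of its group, and the log2 fold change was 1.75 (SE 0.24, adjusted p = 0.00130). Foxm1, a transcription factor of G2 and mitosis genes, had 503.2, 455.8 and 488.7 in grafts, against 129.2, 85.1 and 122.0 before grafting. It had the largest rise of the group at 2.12 on the log2 scale (SE 0.19). Top2a, which untangles sister DNA, averaged 2009 ± 239 in grafts and 529.1 ± 132.1 before grafting (SD, n = 3 each), a log2 fold change of 1.95. Cdca5, or sororin, which protects cohesion, rose by 1.78, Cdca2, or Repo-Man, a phosphatase anchor on chromosomes, by 1.63, and Cdca3, a promoter of mitotic entry, by 2.01. Cdca4 rose by 1.22 (SE 0.13). Cdca7, which helps to maintain DNA methylation, had 223.0, 179.4 and 203.8 in grafts, against 144.0, 94.2 and 147.5 before grafting. The groups did not overlap, but the log2 fold change of 0.67 (standard error 0.22) missed the threshold (adjusted p = 0.0862).

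Cenpv and Cenpj carry centromere names without belonging to the kinetochore core. Cenpv, described in human cells as a protein of centromeres and the spindle midzone, had 66.3, 61.1 and 72.2 normalised counts in grafts, against 253.4, 367.7 and 172.1 before grafting (ENSMUSG00000018509, chromosome 11, 62524946 to 62539261, GRCm38). The grafts lay within a narrow range below a spread-out group, and the log2 fold change of -1.91 (standard error 0.28, adjusted p = 0.00156) was the largest fall of the 78. Replicate 2 before grafting had the highest Cenpv and also the highest adipocyte marker sum of its group. Among grafts, however, Cenpv was highest in replicate 3, which had the lowest adipocyte marker sum. The part of adipocytes in the fall was not tested. Cenpj, which builds centrioles, had 212.9, 194.0 and 255.2 in grafts, against 306.7, 268.5 and 302.0 before grafting. Every graft was lower, but the log2 fold change of -0.41 (standard error 0.15) did not pass the test (adjusted p = 0.150). It passed with equal upper quartiles, at -0.60, and with ribosomal protein genes held constant, at -1.18. It also passed when p-values were adjusted over tested genes only.

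Levels per kilobase of the listed gene length showed a change in the order of the genes. In grafts the highest mean levels were those of Mki67 (276.2 normalised counts per kilobase), Ccnb2 (258.8), Incenp (242.0), Cdc20 (234.1) and Top2a (222.9), and the lowest was that of Kif18a (9.22). Before grafting the highest was Pttg1 with 199.7 per kilobase, followed by Cenpv with 146.0 and Bub3 with 126.4. Pttg1 had 128.4 per kilobase in grafts and stood 18th, and Cenpv had 36.74 and stood 65th. Cdk1 had 151.2 per kilobase in grafts and 16.91 before grafting, and Ccnb1 had 140.5 in grafts and 13.17 before grafting. The fourth place before grafting was held by Mad2l1bp with 93.52 per kilobase. Of these leading genes Pttg1 and Cenpv fell in grafts, while Bub3 and Mad2l1bp had log2 fold changes of 0.47 and 0.53.

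The 78 genes shared much of their order between libraries of the same group. Graft replicate 1 had the highest graft value for 63 of them, against 4548 of the 10854 tested genes, and graft replicate 2 the lowest for 61, against 3051. Replicate 2 before grafting had the lowest value of its group for 63 of them, against 3662 of all tested genes. Median deviations from the group mean on the log2 scale were 0.18, -0.18 and 0.01 in the 3 grafts, and 0.09, -0.23 and 0.13 in the 3 libraries before grafting, while those of all tested genes lay between -0.02 and 0.02. Marker sums also differed between these libraries, not always in 1 direction. The adipocyte sums were 20050, 6911 and 5477 in the 3 grafts, highest in replicate 1, and 224400, 308600 and 227200 before grafting, highest in replicate 2. Fibroblast sums were 600800, 1018000 and 910100 in grafts, lowest in replicate 1 and highest in replicate 2, and 126100, 138900 and 109700 before grafting, again highest in replicate 2. Neutrophil sums were 40370, 44880 and 77210 in grafts, and 476.3, 374.8 and 600 before grafting. Endothelial sums were 3148, 2396 and 2192 in grafts, highest in replicate 1, and 6087, 6857 and 5867 before grafting, highest in replicate 2. Mesothelium marker sums were 147.6, 83.4 and 87.05 in grafts, also highest in replicate 1, and 2.958, 5.065 and 1.967 before grafting, highest in replicate 2. Only 1 of the 3 listed mesothelium markers passed the filter on low values. Graft replicate 1 thus had the highest adipocyte, endothelial and mesothelium sums of the grafts and the lowest fibroblast and neutrophil sums. The sums of T and NK cell markers were 302.3, 699.2 and 456 in grafts, lowest in replicate 1, and 6140, 3511 and 4462 before grafting, lowest in replicate 2. The sums of B and plasma cell markers were 162.7, 340.4 and 127.6 in grafts, and 8370, 4040 and 6601 before grafting, also lowest in replicate 2. The 4 listed germinal centre and lymph node markers summed to 1240, 1546 and 1650 in grafts, and to 4973, 2684 and 3915 before grafting. Macrophage sums were 198300, 188800 and 195700 in grafts, and 23840, 21070 and 21730 before grafting. They spread little, but were highest in replicate 1 and lowest in replicate 2 of each group, as were the summed counts of the 78 genes. The part of these cell types in the level of mitotic genes was not tested. Without replicate 2 before grafting the median log2 fold change of the 78 genes was 1.67, with 64 called higher, and without graft replicate 1 it was 1.77, with 64 called higher.

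**Figure D5:**
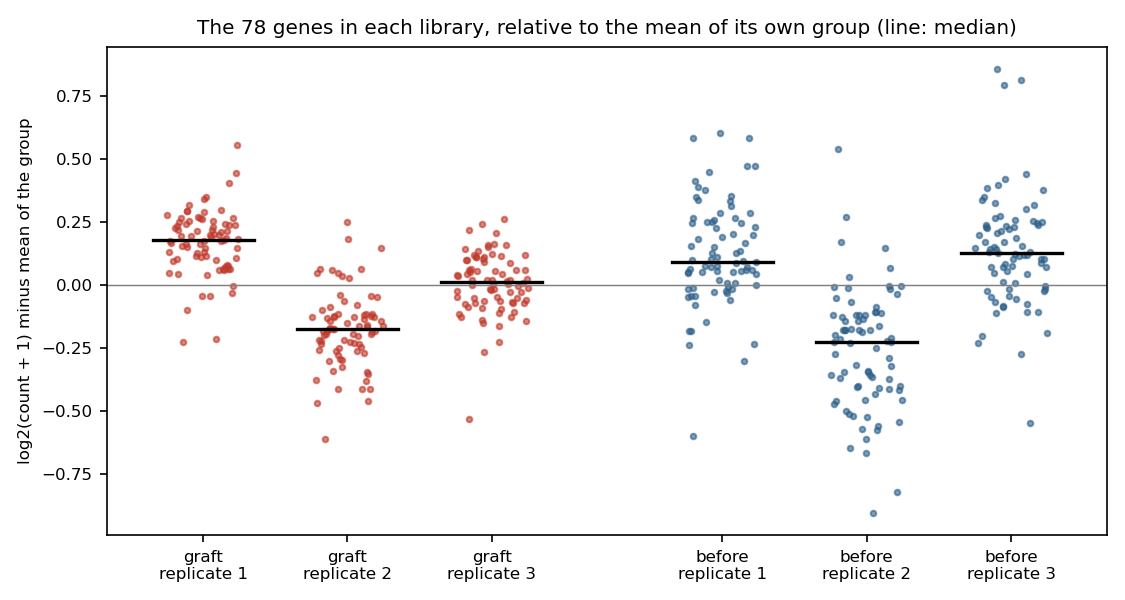
Each point is 1 of the 78 mitotic genes in 1 library, as log2(normalised count + 1) minus the mean of its group (y axis), with the median as a line, grafts in red and libraries before grafting in blue. Medians are 0.18, -0.18 and 0.01 in grafts and 0.09, -0.23 and 0.13 before grafting, so that graft replicate 2 and replicate 2 before grafting lie lowest.

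Other genes of the cell cycle were taken from textbook lists, of which the cohesin list holds Cdca5 and the G1 list Cdc25a, both among the 78. Of 41 listed spindle and kinetochore genes outside the name rule, 38 rose and 2 fell (median 1.94 on the log2 scale, beside 1.85 for the 78). Ckap2l, a spindle protein, had the largest rise of them, 448.9, 368.5 and 508.4 normalised counts in grafts, against 52.3, 38.5 and 82.6 before grafting (log2 fold change 2.97, SE 0.28). The genes that fell were Wee1, the kinase that restrains CDK1, by a log2 fold change of -0.82 (standard error 0.13), and the kinetochore gene Zwint, at -0.38 (SE 0.09). DNA replication genes rose in 11 of 12 cases with a median of 1.24, led by the ribonucleotide reductase subunit Rrm2 at 2.03 (SE 0.18). Of 12 listed genes of the APC/C and its partners 8 rose, led by its ubiquitin-conjugating enzyme Ube2c at 2.23 (SE 0.22). That count was 4 under each of the scalings by totals, median ratios and upper quartiles, 1 with ribosomal protein genes held constant, and 5 without any 1 of the grafts or without replicate 1 or 3 before grafting. Anapc13, an APC/C subunit, fell with a log2 fold change of -0.57 (standard error 0.15, adjusted p = 0.0353), a call lost without graft replicate 2 or 3 or without replicate 1 or 2 before grafting. Of 9 cohesin genes 4 rose, a share near the 41.3% of all tested genes, led by the shugoshin Sgo2a at 2.15 (SE 0.25), and 2 fell, the cohesin loader Nipbl at -0.33 (SE 0.09) and the regulator Pds5b at -0.53 (SE 0.09). The call of Nipbl was lost on leaving out any library but replicate 2 before grafting, and that of Zwint without replicate 2 or 3 of either group. With ribosomal protein genes held constant, 22 of the 41 spindle and kinetochore genes, 3 of the 12 replication genes and 2 of the 9 cohesin genes were called higher. Cohesin genes called lower numbered 4 under median ratios and equal upper quartiles, and 5 with ribosomal protein genes held constant.

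Regulators of the cycle moved in both directions, as did all tested genes (41.3% called higher and 39.2% lower). Of 13 DREAM and MMB genes, whose complexes repress or activate cell cycle promoters, 7 rose and 5 fell (median 0.47 on the log2 scale). Mybl2, the B-MYB subunit of the activating complex, had 314.4, 185.2 and 207.7 normalised counts in grafts, against 60.1, 33.4 and 49.2 before grafting. Its log2 fold change was 2.29 (SE 0.29). Those that fell were Lin52 (-1.31), a subunit of both complexes, the E2F partner Tfdp2 (-1.07), the pocket proteins Rbl2 (-0.68) and Rb1 (-0.52), and the repressor E2f6 (-0.60). Of 7 genes of G1 cyclins and kinases, 5 rose, led by Cdk4 at 1.52 (SE 0.10). Ccnd2, cyclin D2, fell with 1948.4, 1977.4 and 1795.4 in grafts, against 4938.1, 4798.8 and 4331.9 before grafting. Ccnd3, cyclin D3, fell with a log2 fold change of -0.57 (standard error 0.11). Of 7 genes with CDK inhibitor (Cdkn) symbols 3 rose, 2 fell and 2 did not pass the test. Those that rose include Cdkn3 (2.10 on the log2 scale), a phosphatase gene listed by its symbol. Cdkn1a, or p21, had 3486.0, 4109.0 and 3671.9 in grafts, against 532.5, 748.6 and 476.1 before grafting. All grafts lay far above, and the rise was 2.70 on the log2 scale (SE 0.17, adjusted p = 1.70e-05). Cdkn2c, or p18, had 516.2, 294.8 and 363.0 in grafts, against 2012.5, 1921.7 and 1676.1 before grafting. All grafts lay below, and the log2 fold change of -2.29 (standard error 0.20, adjusted p = 9.22e-05) was the largest fall in these lists. Cdkn2b, or p15, fell with a log2 fold change of -0.82 (standard error 0.21, adjusted p = 0.0336), a call lost without graft replicate 2 or 3 or without replicate 1 or 2 before grafting. With ribosomal protein genes held constant, 3 of the 13 DREAM and MMB genes and 1 each of the G1 genes and the Cdkn genes were called higher.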

How the data were processed

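RNA extracted with Trizol was sequenced from 6 libraries. As deposited, values are a signal per gene (normalised read counts), which the authors made from gene reads. All of them (100%) were whole multiples of a library's own step (0.96979 to 1.01304, tolerance 0.01 reads). Values deposited sample by sample matched the joint table, and the authors' group means were left out. Levels per kilobase used the gene lengths the authors deposited (unit other, bases). Per the submitters' processing notes, Bowtie 0.12.2 and HISAT2 2.0.5 were among the tools, and mm8 and mm9 among the builds. The coordinates fit GRCm38, however: GENCODE M21 holds 12151 of the 12163 listed IDs, 12029 of them within 1000 bp. Which counter, strand setting, normalization tool and gene filter were used is not given in the sources used here.

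Limma 3.58.1 (R 4.3.3; mean trend, robust, two-sided) was fitted to log2(value + 1) of the 10854 genes that reached 10 in 3 or more libraries. Fold changes are on that scale, which understates the change of low genes. P-values were adjusted by Benjamini-Hochberg across the 55450 annotated genes, those without a test counting as not significant, and an adjusted p under 0.05 was a call. The variance prior rests on genes that appear to be selected for a difference. The fit was checked on simulated data. Other software was Python 3.11.15, numpy 2.4.6, pandas 2.3.3, scipy 1.17.1 and matplotlib 3.10.9. Near copies were alignments of at least 95% identity over at least 200 bases. Values by library are given, in each role, for the called gene with the largest change, the gene with the highest graft level per kilobase, and every gene called lower or not called. Cdk1, Cdc25c, Ncapg2 and Espl1 were added after their values were seen, and so were the library values of genes of the textbook lists. The genes and lists were chosen with earlier results of these data known. Alternatives were other pseudocounts, filters, scalings and adjustment, a replicate block, and leaving out each library.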

Additional observations from a re-analysis of the deposited data

How the results depend on the processing

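Of the 78 genes, 69 were called higher and 3 lower, beside 41.3 and 39.2% of all tested genes. Other pseudocounts (0.5 and 5), no filter on low values and adjustment over tested genes only gave 69 to 74 higher and 3 or 4 lower. With that adjustment the 6 genes that had not passed the test were all called. Equal listed totals, median ratios and equal upper quartiles gave 62, 64 and 63 higher; the median of all tested genes was then 0.15, 0.17 and 0.09, and that of the 78 was 1.72, 1.73 and 1.66. Holding ribosomal protein genes constant left 49 higher with a median of 1.08. It turned the log2 fold changes of Cdca7, Mad2l1bp, Ska2, Cenpc1 and Bub3 to -0.092, -0.24, -0.26, -0.27 and -0.29. That scaling lowered the log2 fold changes of all genes by nearly the same amount, and the median of all tested genes from 0.28 to -0.49. Why the scalings differ was not tested. Leaving out 1 library at a time gave 64 to 68 higher, 1 to 3 lower and medians of 1.67 to 1.95, with only Cenpv lower without replicate 3 before grafting, in fits with fewer samples. Same-numbered libraries share only a number (correlations of their deviations -0.157, -0.127 and 0.041), and a fit with a replicate block called 67 higher and 2 lower, Kif18a, Cenpc1 and Ncapd3 losing their calls. Of the textbook lists, that block ended the calls of Anapc13, Cdkn2b, Nipbl and Zwint and left 5 APC/C genes higher. In the shorter window of 100 bases before to 50 after the start, TTTGAA stood in 54.8% of mitotic windows and 8.01% of all. Planned count models and their normalization were not run. The steps lie close to 1, and a check of units did not accept the whole multiples as reads for every library. Low counts limit Cdc25c and Cenph most, and depth beyond the listed genes is unknown.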
